A study of Mus musculus with 12 samples.

Results

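*Bmi1*-CPC sorted from infarcted hearts were compared with *Sca-1*+, YFP-negative (*Sca-1*-YFP-) cells sorted from uninjured hearts. The members are 8 of the 12 libraries of the series, 4 of each population, joined gene by gene from the table of each study arm. A gene was tested when its normalised value was above 1 in at least 4 of the 8 libraries, which kept 12521 of 12528 genes. All animals were C57BL/6 *Bmi1*CreER/+;*Rosa26*YFP/+ mice of both sexes, so the control cells carried the same alleles. The Cre is driven by the *Bmi1* locus itself and is switched on by tamoxifen (TM), so YFP marks cells that expressed *Bmi1* at induction together with their progeny. Every mouse received 3 injections of TM, dosed at 9 mg for every 40 g the animal weighed. For the *Sca-1*-YFP- population the hearts were taken 5 days after TM from uninjured mice, and each library pooled 6 hearts. For *Bmi1*-CPC after acute myocardial infarction (AMI) the left anterior descending artery was ligated 5 days after TM. The hearts were taken 5 days after ligation, and each library pooled 2 to 3 hearts. Cell label, injury, sort, time since TM and pool size therefore differed together between the populations and cannot be told apart here. In the methods, CD45+ cells are discarded in the *Sca-1* sort only, and the sample names of the AMI *Bmi1*-CPC read as positive for SCA-1 and YFP. The ages given for the adult mice vary between sections of the sources. *Bmi1*-CPC of uninjured hearts, 4 libraries of 6 mice each that share the TM protocol and time with the *Sca-1*-YFP- population, are set beside the comparison where they show how its values divide.

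The heart's non-myocyte cells are mainly fibroblasts, endothelial cells, pericytes and macrophages. SCA-1, the product of *Ly6a*, is carried by many fibroblasts and endothelial cells. After coronary ligation, leukocytes enter the infarct, and resident fibroblasts divide and turn into matrix-secreting cells that build the scar. BMI1 is a subunit of Polycomb repressive complex 1, a chromatin complex that keeps genes silent and represses the *Cdkn2a* locus. In the bulk profile of a sorted pool, fewer cells of a type and less RNA per cell cannot be told apart.

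The libraries held 6784686 to 8078721 reads in AMI *Bmi1*-CPC, 3397621 to 8031666 in the *Sca-1*-YFP- population and 4063619 to 4993906 in homeostatic *Bmi1*-CPC. With 0 reads counted, the value of a gene could still be as high as 0.316 to 0.828 in the 8 libraries compared (a floor of 3 reads, for counting error only). The mitochondrial ribosomal RNA *mt-Rnr2* took 25.0% ± 5.94 (SD, n = 4) of the reads in AMI *Bmi1*-CPC and 16.9% ± 5.74 (SD, n = 4) in the *Sca-1*-YFP- population, a difference of 8.12 points that did not pass an exact two-sided permutation test (p = 0.114, the smallest possible being 0.0286). Between libraries, Pearson's r over all genes was 0.977 to 0.984 within AMI *Bmi1*-CPC, 0.962 to 0.979 within the *Sca-1*-YFP- population and 0.856 to 0.902 between the populations. *Xist* was at 3.45 in *Sca-1*-YFP- library 4 and at 1065 to 2339 in the other 3, so the pools were not alike in sex, and whether sex bears on the differences was not tested. Of 5 sex-linked genes limma called 0, 0 had an unadjusted p under 0.05, and edgeR and DESeq2 called 0. The spread within the *Sca-1*-YFP- population limits what these tests can call. Without *Sca-1*-YFP- library 4 limma called *Ddx3y* (log2 fold change 1.49, adjusted p = 0.036). Without the libraries with the largest *mt-Rnr2* share it called *Kdm5d* (−0.65, adjusted p = 0.029). Of 7 erythroid markers 3 were tested, the haemoglobin genes *Hba-a1*, *Hbb-b1* and *Hbb-b2*. These were higher in AMI *Bmi1*-CPC than in the *Sca-1*-YFP- population (median log2 fold change 1.43). Against homeostatic *Bmi1*-CPC 0 were higher and 2 lower after AMI (median −0.79). *Hba-a1* has the near-identical copy *Hba-a2*, and *Hbb-b1* and *Hbb-b2* share sequence with each other. Without AMI library 2 the call of *Hba-a1* was lost.

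Genes used in the sorts and the lineage label were examined first. *Bmi1* had values of 43.8, 41.1, 47.6 and 49.7 in the 4 AMI *Bmi1*-CPC libraries and 25.6, 35.3, 26.6 and 25.0 in the 4 libraries of the *Sca-1*-YFP- population. It was thus higher in every library of the labelled cells, by 0.69 ± 0.12 (SE) on the log2 scale (limma, adjusted p = 8.2e-04). Its mean in homeostatic *Bmi1*-CPC was 48.7 ± 7.61 (SD, n = 4). *Bmi1* shares near-identical sequence with the pseudogene *Gm5946* (97% identity over 74% of its longest transcript). Some reads of that stretch may belong to either, which was not tested. *Ly6a* was at 468, 473, 639 and 726 after AMI and at 508, 782, 679 and 599 in the *Sca-1*-YFP- population. Those ranges overlapped and the gene did not pass the test (log2 fold change −0.16 ± 0.17, adjusted p = 0.45). *Ptprc*, which encodes the CD45 antigen, had values of 149, 87.4, 64.0 and 72.9 after AMI against 1.74, 2.12, 0.813 and 1.79 in the *Sca-1*-YFP- population. The lowest AMI library was far above the highest library of the *Sca-1*-YFP- population, in which CD45+ cells had been removed, and the difference was 5.12 ± 0.25 on the log2 scale (adjusted p = 9.0e-08). In homeostatic *Bmi1*-CPC the *Ptprc* mean was 17.4 ± 3.44 (SD, n = 4).

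By limma on log2(value + 1), 6486 of 12521 genes (51.8%) differed at an adjusted p under 0.05. Of these, 3188 (25.5% of the genes tested) were higher and 3298 (26.3%) lower in AMI *Bmi1*-CPC. More than 2-fold higher were 1033 genes (8.25%) and more than 2-fold lower 978 (7.81%), whereas 133 (1.06%) were over 8-fold higher and 27 (0.216%) over 8-fold lower. The libraries of the 2 populations did not overlap for 5856 genes (46.8%), 2784 (22.2%) of them higher and 3072 (24.5%) lower. The median log2 fold change of all tested genes was −0.02, with quartiles of −0.44 and 0.39. Scaling to the library totals, which includes *mt-Rnr2*, moved that median to −0.18 and the share of higher calls from 49.2% to 35.2%, with 2025 genes higher and 3720 lower. All log2 fold changes below are of AMI *Bmi1*-CPC over the *Sca-1*-YFP- population on the log2(value + 1) scale unless stated. This scale makes changes of low genes look smaller than they are. The words rose, fell, higher and lower refer to the comparison with the *Sca-1*-YFP- population unless stated, not to injury alone. The p-values measure the spread between these pooled libraries. The gene lists were chosen with earlier results of these data known, so a list's counts beside all genes describe it and do not test it. Called against homeostatic *Bmi1*-CPC were 5421 of 12486 genes (43.4%; 21.4% higher and 22% lower after AMI). Between the uninjured populations 4286 of 12450 genes were called (34.4%; 16.8% higher and 17.6% lower in *Bmi1*-CPC). Same-numbered libraries of the uninjured populations varied together, and with the replicate number as a block 4667 genes were called, 4244 of them also called without it. Each of these side comparisons shares 4 libraries with the main one, so their values are given side by side only.

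**Figure D1:**
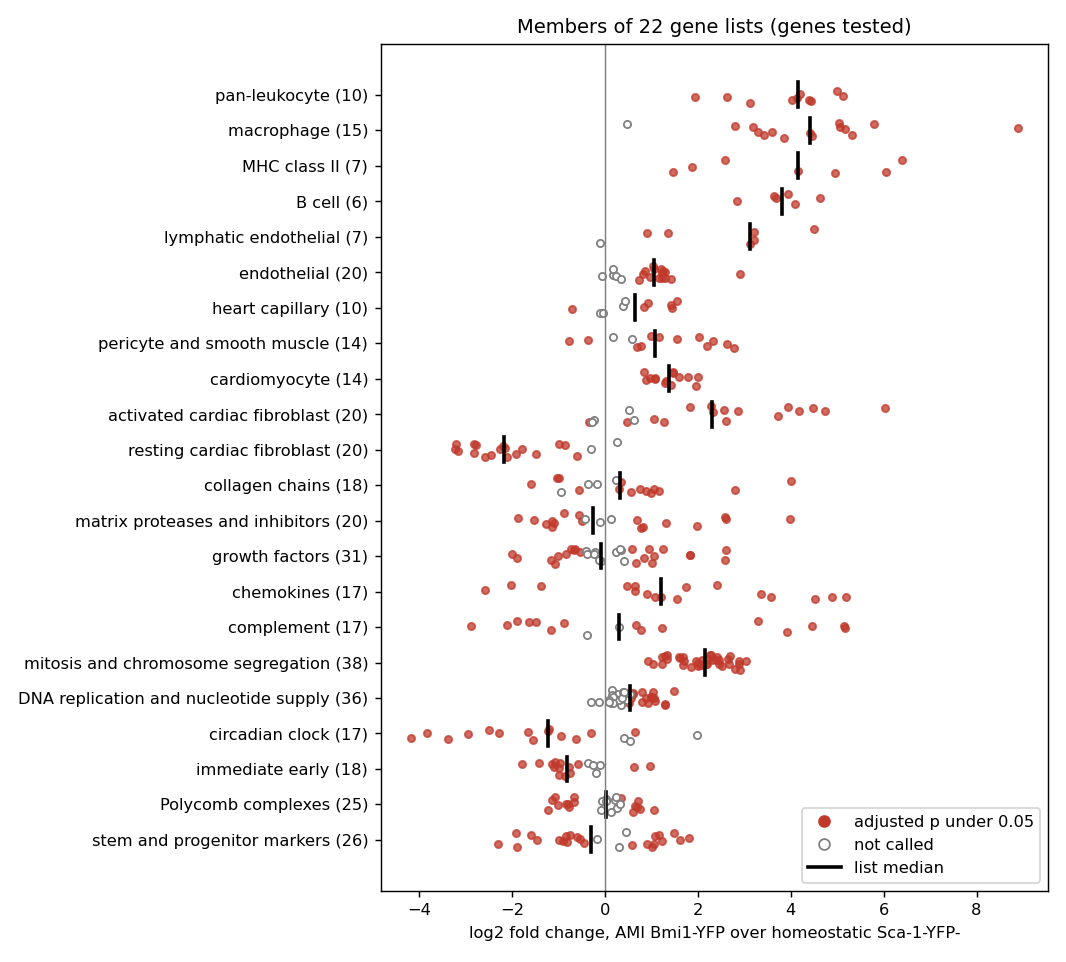
Log2 fold change of AMI *Bmi1*-CPC over homeostatic *Sca-1*-YFP- cells for the tested members of 22 gene lists, 1 point per gene, filled where the limma adjusted p was under 0.05, with a bar at each list's median. For the leukocyte, lymphatic endothelial, growth factor, chemokine and complement lists the bar includes genes tested only because the AMI libraries were above 1. All 38 mitosis genes lay above 0, and resting fibroblast genes had the lowest median (−2.18).

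The listed genes of mitosis were higher without exception in AMI *Bmi1*-CPC. All 38 genes of mitosis and chromosome segregation tested rose, where 25.5% of all tested genes rose, and for all 38 the libraries of the populations did not overlap. Their median log2 fold change was 2.15, against −0.02 over all genes. *Top2a*, the topoisomerase that untangles sister chromatids, had values of 97.6, 158, 85.2 and 103 in the AMI libraries and 15.2, 10.8, 12.4 and 11.2 in those of the *Sca-1*-YFP- population. It was higher by 3.04 ± 0.18 (SE) on the log2 scale (limma, adjusted p = 3.0e-07), the largest difference of the list. *Mki67*, whose product coats mitotic chromosomes and marks cycling cells, was at 227, 366, 201 and 252 against 46.6, 29.1, 36.6 and 25.5. The highest library of the *Sca-1*-YFP- population was far below the lowest AMI library, and the log2 fold change was 2.89 ± 0.21 (adjusted p = 1.2e-06). *Kif11*, the kinesin that pushes the spindle poles apart, was at 33.7, 53.8, 33.5 and 35.4 after AMI and 5.42, 4.12, 6.62 and 5.11 in the *Sca-1*-YFP- population (log2 fold change 2.65 ± 0.18, adjusted p = 8.0e-07). *Bub1*, a kinase of the spindle checkpoint, was at 13.3, 20.1, 16.0 and 13.1 after AMI against 1.21, 1.89, 0.813 and 0.966 (log2 fold change 2.91 ± 0.20, adjusted p = 9.7e-07). For each of these 4 genes AMI library 2 was the highest. The smallest differences of the list belonged to the kinase gene *Aurka* (0.92) and the checkpoint gene *Mad2l1* (1.04), named after their values were seen.

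Summed over the list, mitosis genes reached 825 to 1436 in AMI *Bmi1*-CPC, 316 to 370.1 in homeostatic *Bmi1*-CPC and 129.7 to 197 in the *Sca-1*-YFP- population. Homeostatic *Bmi1*-CPC thus lay between the others. Against homeostatic *Bmi1*-CPC, 37 of the 38 genes were higher after AMI (median 1.27, background 21.4%), and 23 were higher in homeostatic *Bmi1*-CPC than in the *Sca-1*-YFP- population (median 0.78, background 16.8%). For *Top2a* the log2 fold changes were 1.78 over homeostatic *Bmi1*-CPC and 1.25 for homeostatic *Bmi1*-CPC over the *Sca-1*-YFP- population.

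Genes of DNA replication and nucleotide supply differed less. Of 36 tested, 18 rose (50%, beside 25.5% of all genes, median 0.53) and 18 were not called. *Rrm2*, the regulated subunit of the reductase that makes deoxynucleotides, had values of 14.7, 19.8, 14.1 and 17.5 after AMI and 5.74, 6.35, 4.07 and 4.83 in the *Sca-1*-YFP- population. It was higher by 1.49 ± 0.17 (adjusted p = 2.9e-05), whereas its partner subunit *Rrm1* was higher by 1.08 ± 0.14 (adjusted p = 6.6e-05). *Pcna*, the sliding clamp of the replication fork, was at 111, 108, 106 and 98.1 against 34.2, 67.6, 39.8 and 35.5 (log2 fold change 1.29 ± 0.18, adjusted p = 1.4e-04), and *Tyms*, which makes thymidylate, differed by 1.03 ± 0.14 (adjusted p = 1.3e-04). The groups did not overlap for these 4 genes. Of the licensing genes *Mcm2*, *Mcm3* and *Mcm6* rose by 0.80, 0.80 and 0.99, and *Mcm4*, *Mcm5* and *Mcm7* by 0.56, 0.54 and 0.61. The call of *Mcm5* was lost in 8 of 20 other settings, and those of *Mcm4* and *Mcm7* in 1 of 21 each. The loading factor *Cdt1* rose by 1.02, a call lost in 3 of 20 settings. The loading factor *Cdc6* (0.27) and the polymerase subunit *Pold1* (−0.30) did not pass the test. The *Mcm* genes, *Cdt1*, *Cdc6* and *Pold1* were picked after their values were seen. *Pcna* has a near-identical processed copy elsewhere in the genome. Scaled to library totals, 13 members of the list were called higher.

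**Figure D2:**
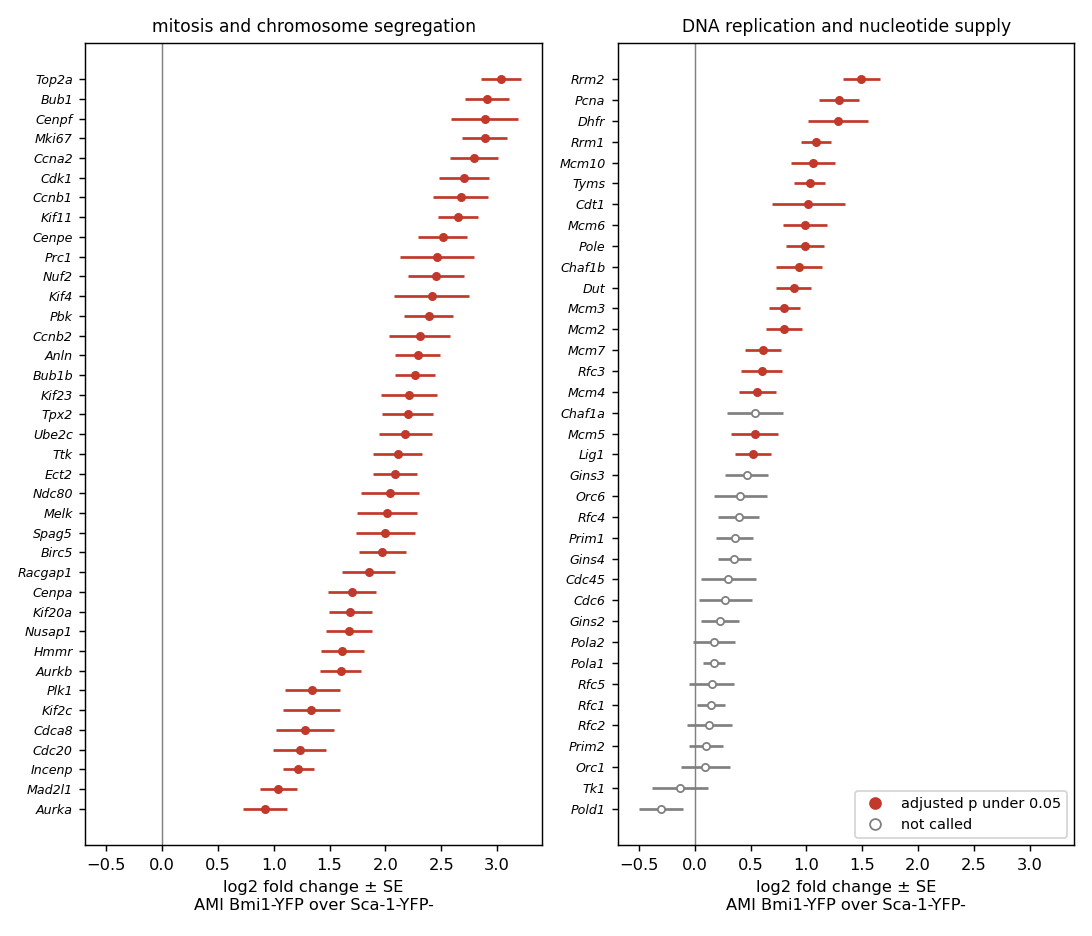
Log2 fold change with its SE for each tested gene of mitosis (left, 38 genes) and of DNA replication and nucleotide supply (right, 36 genes), filled where the limma adjusted p was under 0.05. All mitosis genes are filled and lie between 0.92 and 3.04, whereas the 18 filled replication genes reach at most 1.49.

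Of the inhibitors of cyclin-dependent kinases, which hold cells out of the cycle, 6 of 8 were tested and 1 was called higher (16.7%, beside 25.5% of all genes). *Cdkn2b* was at 1.88, 3.15, 3.17 and 2.77 after AMI and 0.790, 0.557, 1.28 and 0.414 in the *Sca-1*-YFP- population, low values in both, with a log2 fold change of 1.10 ± 0.23 (adjusted p = 0.0019). *Cdkn1a*, the p53 target p21, was at 128, 129.9, 124 and 102 after AMI against 46.2, 107, 111 and 137. *Sca-1*-YFP- library 1 stood apart there, below the other 7 libraries, and the gene did not pass the test (log2 fold change 0.37 ± 0.27, adjusted p = 0.27). *Cdkn1c* (p57, an imprinted inhibitor) was lower after AMI than in homeostatic *Bmi1*-CPC (−1.16, adjusted p = 1.2e-04) and was not called against the *Sca-1*-YFP- population (−0.23, adjusted p = 0.37). *Cdkn2d* was not called either (0.58, adjusted p = 0.083), but passed without AMI library 4 (adjusted p = 0.027) or without *Sca-1*-YFP- library 1 (0.041), which brought the count to 2.

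The promoters of the 4 mitosis genes named above are shown because the list moved as a whole. Each is the RefSeq sequence (GRCm38.p6) from 250 bases before to 50 bases after the annotated start, written 5′ to 3′ on the gene's strand, with the letters TTTGAA and CCAAT of either strand in capitals. TTTGAA is the core of the cell cycle homology region and CCAAT the box bound by NF-Y in many genes expressed late in the cycle.
*Top2a*, chr11:99024140-99024439, minus strand: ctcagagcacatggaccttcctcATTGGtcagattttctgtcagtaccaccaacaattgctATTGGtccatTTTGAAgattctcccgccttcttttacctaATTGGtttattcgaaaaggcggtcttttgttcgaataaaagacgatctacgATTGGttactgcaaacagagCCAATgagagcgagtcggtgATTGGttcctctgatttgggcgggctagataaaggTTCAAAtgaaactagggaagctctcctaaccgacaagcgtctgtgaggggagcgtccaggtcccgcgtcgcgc
*Kif11*, chr19:37376132-37376431, plus strand: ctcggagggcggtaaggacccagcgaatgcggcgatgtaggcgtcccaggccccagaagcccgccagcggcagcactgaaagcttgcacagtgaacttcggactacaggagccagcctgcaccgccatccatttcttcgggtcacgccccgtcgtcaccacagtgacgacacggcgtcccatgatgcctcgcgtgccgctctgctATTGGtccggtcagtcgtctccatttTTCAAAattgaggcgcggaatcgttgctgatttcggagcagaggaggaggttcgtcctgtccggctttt
*Bub1*, chr2:127831810-127832109, minus strand: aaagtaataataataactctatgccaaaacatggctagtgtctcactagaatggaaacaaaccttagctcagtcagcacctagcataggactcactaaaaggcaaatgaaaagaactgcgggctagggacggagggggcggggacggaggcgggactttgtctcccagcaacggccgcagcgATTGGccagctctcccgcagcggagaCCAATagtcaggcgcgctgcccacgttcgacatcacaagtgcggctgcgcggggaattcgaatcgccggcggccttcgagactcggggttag
*Mki67*, chr7:135716330-135716629, minus strand: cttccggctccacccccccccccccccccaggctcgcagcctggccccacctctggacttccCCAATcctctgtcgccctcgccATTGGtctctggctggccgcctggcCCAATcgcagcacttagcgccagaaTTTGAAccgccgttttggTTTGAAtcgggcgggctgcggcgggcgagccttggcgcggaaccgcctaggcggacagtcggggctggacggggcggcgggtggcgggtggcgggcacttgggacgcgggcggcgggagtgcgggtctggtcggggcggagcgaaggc
TTTGAA on the reverse strand lay 19 bases before the start of *Kif11* and 23 before that of *Top2a*, each with CCAAT farther upstream. *Bub1* had CCAAT and no TTTGAA in this window. In none of the 4 did a TTTGAA overlap a CCAAT. Among the 38 mitosis genes 32 had a promoter in the table, and 24 of these (75%) held TTTGAA, 24 (75%) CCAAT and 21 (65.6%) both. Of 29 replication promoters, 3 (10.3%) held TTTGAA, 18 (62.1%) CCAAT and 3 (10.3%) both. Over 27025 promoters of the same length the shares were 20.2%, 41.1% and 7.97%. A match describes these letters only and shows no binding.

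Fibroblast genes moved in opposite directions. The list of 20 markers of resting cardiac fibroblasts was, like the others, chosen with earlier results of these data known. Of these markers 18 fell in AMI *Bmi1*-CPC (median −2.18), where 26.3% of all tested genes fell. *Gsn*, which encodes the actin-severing protein gelsolin, had values of 763, 362, 625 and 608 after AMI and 5194, 5525, 5504 and 5239 in the *Sca-1*-YFP- population. No AMI library came near the level of the *Sca-1*-YFP- population, and the log2 fold change was −3.23 ± 0.20 (SE; limma, adjusted p = 4.5e-07). *Pi16*, a marker of adventitial fibroblasts, was at 116, 92.8, 124 and 87.9 against 731, 619.7, 875 and 761 (log2 fold change −2.82 ± 0.14, adjusted p = 7.7e-08). *Smoc2*, a secreted calcium-binding matrix protein, was at 68.3, 60.8, 67.2 and 64.5 after AMI against 361, 363, 399.9 and 324 (log2 fold change −2.45 ± 0.09, adjusted p = 1.1e-08). In both genes the libraries within a population were close to each other and the populations far apart. *Abca8a*, a lipid transporter gene, and *Cd248*, the stromal receptor endosialin, fell as well (log2 fold changes −2.78 ± 0.15 and −2.16 ± 0.11, adjusted p = 1.4e-07 and 1.0e-07). *Mfap5* (−0.31) and *Sfrp1* (0.25) were the members not called.

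The same resting markers did not move together between the *Bmi1*-CPC populations. Against homeostatic *Bmi1*-CPC, 5 were higher and 7 lower after AMI (median 0.04), and all 20 were lower in homeostatic *Bmi1*-CPC than in the *Sca-1*-YFP- population (median −2.16, background 17.6%). *Cd248* had log2 fold changes of 0.31 (adjusted p = 0.1) between homeostatic and AMI *Bmi1*-CPC and of −2.47 (adjusted p = 1.2e-06) between the *Sca-1*-YFP- population and homeostatic *Bmi1*-CPC. For *Pi16* these values were −0.38 and −2.44. Summed over the list the levels were 7666 to 10230 after AMI, 5379 to 9673 in homeostatic *Bmi1*-CPC and 29040 to 33430 in the *Sca-1*-YFP- population.

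Markers of activated cardiac fibroblasts rose. Of 20 tested, 15 were higher and 1 lower (75% and 5%, beside 25.5% and 26.3% of all genes, median 2.31). *Cthrc1*, a secreted protein of collagen-producing fibroblasts in the healing infarct, was low in the *Sca-1*-YFP- population, with values of 1.63, 1.45, 0.581 and 0.414, against 127, 189.8, 129 and 80.1 after AMI. That was a log2 fold change of 6.02 ± 0.27 (adjusted p = 4.3e-08), the largest of the list. *Tnc*, the matrix glycoprotein tenascin C of wounds, was at 373, 628, 689 and 327 after AMI and 26.3, 9.47, 20.6 and 16.4 in the *Sca-1*-YFP- population (log2 fold change 4.73 ± 0.30, adjusted p = 5.2e-07). *Wisp1*, a matricellular protein of the CCN family, was at 63.1, 116, 69.6 and 58.0 against 3.85, 1.45, 1.98 and 2.62 (log2 fold change 4.47 ± 0.25, adjusted p = 1.7e-07). *Runx1*, a transcription factor, was at 84.8, 138, 106 and 72.7 after AMI against 7.43, 3.45, 6.16 and 2.35 (log2 fold change 4.17 ± 0.28, adjusted p = 8.3e-07). For these 4 genes the lowest AMI library was several times above the highest of the *Sca-1*-YFP- population. *Postn* (periostin) was at 5894 ± 1708 after AMI and 447 ± 134 in the *Sca-1*-YFP- population (SD, n = 4), and *Acta2* (smooth muscle actin) at 186 ± 52.1 and 37.9 ± 18.0. Both were called, at log2 fold changes of 3.72 and 2.32. *Fap*, the fibroblast activation protein, was the member that was lower (−0.34, adjusted p = 0.017), a call lost without AMI library 4 (adjusted p = 0.051), while it was higher than in homeostatic *Bmi1*-CPC (1.03, adjusted p = 1.8e-04). *Postn*, *Acta2* and *Fap* were chosen after their values were seen. Against homeostatic *Bmi1*-CPC all 20 markers were higher after AMI (median 3.19), and between the uninjured populations 1 was higher and 11 were lower in *Bmi1*-CPC (median −0.79).

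**Figure D3:**
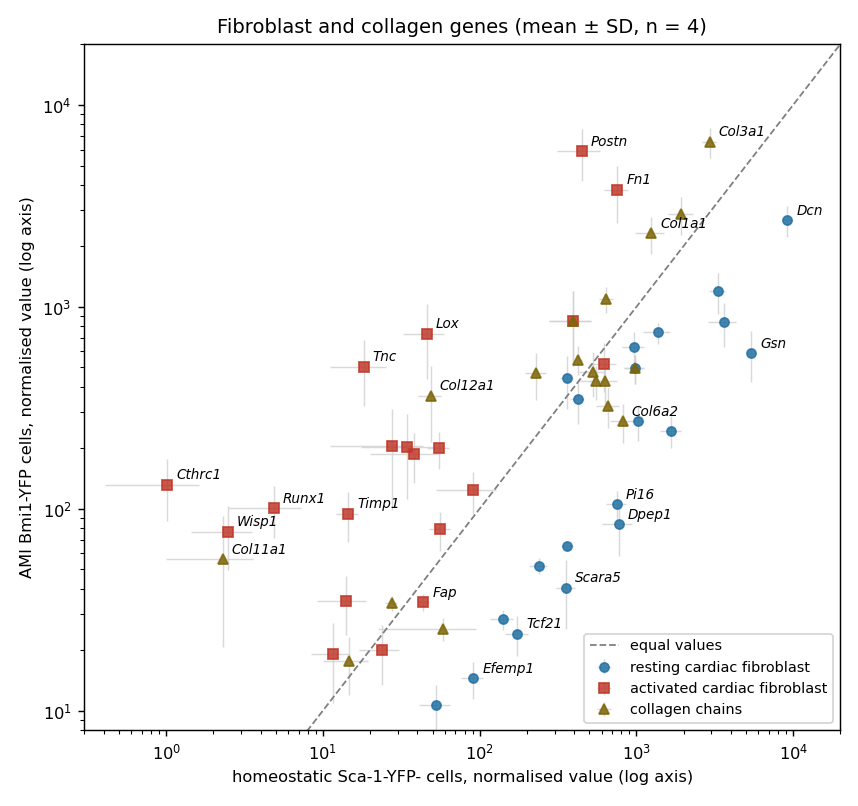
Mean normalised value (± SD, n = 4, log axes) in AMI *Bmi1*-CPC against homeostatic *Sca-1*-YFP- cells for markers of resting and activated cardiac fibroblasts and collagen chains, with a dashed line at equal values. Resting markers such as *Gsn* (589 against 5366) lie below the line, activated markers such as *Cthrc1* (132 against 1.02) above it, and collagens on both sides.

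The collagens, the fibrous proteins of the matrix, were divided by chain. Of 18 chains, 10 rose and 4 fell (55.6% and 22.2%, beside 25.5% and 26.3% of all genes, median 0.33). *Col11a1*, a minor fibrillar chain, was at 47.7, 108, 40.1 and 28.4 after AMI and 1.95, 4.12, 1.04 and 2.07 in the *Sca-1*-YFP- population (log2 fold change 4.01 ± 0.37, adjusted p = 7.8e-06). *Col12a1*, which decorates fibrils, was at 274, 554, 402 and 221 against 59.2, 40.2, 49.8 and 44.8 (log2 fold change 2.80 ± 0.24, adjusted p = 4.7e-06). AMI library 2 was the highest for each, and the populations did not overlap. Of the main fibrillar chains, *Col1a1* was higher by 0.89 and *Col3a1* by 1.15, at means of 2307 ± 488 against 1239 ± 259 and 6552 ± 1098 against 2923 ± 304 (SD, n = 4), both picked after their values were seen. *Col6a2*, a chain of the beaded microfibrils around cells, was the reverse, at 236, 301, 339 and 209.8 after AMI and 995, 649, 806 and 814 in the *Sca-1*-YFP- population (log2 fold change −1.59 ± 0.17, adjusted p = 1.9e-05), and *Col15a1*, of the basement membrane zone, fell (log2 fold change −0.98 ± 0.15, adjusted p = 2.3e-04). Relative to homeostatic *Bmi1*-CPC, 15 chains were higher (median 1.72), and 14 were lower in homeostatic *Bmi1*-CPC than in the *Sca-1*-YFP- population (median −1.70). *Col6a2* differed by 0.37 in the former and by −1.96 in the latter. Leaving out 1 library at a time gave 7 to 10 higher and 3 to 5 lower chains.

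Enzymes that process and cross-link collagen were mostly lower or not called, with 3 of 18 higher and 8 lower (median −0.24). These shares were 16.7% and 44.4%, beside 25.5% and 26.3% of all genes. *Lox*, the lysyl oxidase that cross-links collagen and elastin, was an exception, at 776, 1124, 611 and 429 after AMI and 49.1, 26.0, 51.9 and 56.1 in the *Sca-1*-YFP- population. Its log2 fold change was 3.94 ± 0.29 (adjusted p = 1.4e-06). *P4ha3*, a prolyl hydroxylase subunit, rose as well, at 24.6, 32.1, 21.3 and 15.4 against 1.84, 2.56, 1.74 and 1.79 (log2 fold change 2.99 ± 0.21, adjusted p = 1.1e-06), as did the lysyl hydroxylase gene *Plod2* (0.76), named after its value was seen. *Pcolce* and *Bmp1*, an enhancer and an enzyme of procollagen cleavage, fell (log2 fold changes −1.46 and −1.17, adjusted p = 2.3e-05 and 1.2e-05).

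Matrix proteases and their inhibitors divided as well, 8 higher and 9 lower of 20 (40% and 45%, beside 25.5% and 26.3% of all genes). *Adam12*, a metalloprotease of injured mesenchyme, was at 119, 153, 124 and 99.2 after AMI and 5.21, 2.79, 9.41 and 13.7 in the *Sca-1*-YFP- population (log2 fold change 3.99 ± 0.34, adjusted p = 4.1e-06). *Timp1*, an inhibitor of matrix metalloproteases, was at 76.9, 109, 124 and 68.0 after AMI against 14.3, 13.3, 12.4 and 17.8 (log2 fold change 2.60 ± 0.19, adjusted p = 1.2e-06). Its relative *Timp2* moved the other way, at 462, 451, 435 and 353 against 1244, 1075, 1466 and 1114 (log2 fold change −1.52 ± 0.13, adjusted p = 4.5e-06), as did the aggrecanase *Adamts5* (−1.88 ± 0.15, adjusted p = 2.5e-06). The groups did not overlap for any of these 4 genes.

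Leukocyte genes were higher in AMI *Bmi1*-CPC. Of 16 pan-leukocyte genes 10 were tested, of 21 macrophage markers 15, of 8 MHC class II genes 7 and of 8 B cell genes 6. For 3, 10, 1 and 6 of these, in that order, no library of the *Sca-1*-YFP- population had a value above 1, so they were tested only because all 4 AMI libraries did, and they had to differ. The calls of those genes, the whole tested B cell list included, are therefore no evidence of a direction, and their values are given as a description. Of the other genes tested, 7 of 7 pan-leukocyte genes, 4 of 5 macrophage markers and 6 of 6 MHC class II genes rose (background 25.5%). In the methods CD45+ cells were discarded in the *Sca-1* sort only, so for these counts too the sort cannot be told apart from label and injury. *Lyz2*, the lysozyme of macrophages and neutrophils, was among the genes that had to differ. It had the largest log2 fold change among the 15 highest genes named by rule, 8.89 ± 0.19 (SE). Its values were 942, 743, 630.5 and 509 after AMI and 0.369, 0.557, 0.813 and 0.138 in the *Sca-1*-YFP- population. Each *Sca-1*-YFP- library was near the level of single reads and far below every AMI library. *Lyz2* has the near-identical neighbour *Lyz1*. *Emr1*, which encodes the macrophage surface protein F4/80, had 58.6, 48.5, 39.2 and 31.0 after AMI and 0 reads in all 4 libraries of the *Sca-1*-YFP- population, so it was at least 321-fold higher (against a floor of 3 reads over the group). *Mrc1*, the mannose receptor of resident macrophages, had to differ as well. It was at 99.1, 90.4, 71.5 and 74.7 after AMI against 0.790, 0.557, 0.116 and 0.690 (log2 fold change 5.80 ± 0.18). *Il1b*, the inflammatory cytokine, was at 98.8, 91.3, 88.6 and 81.8 after AMI with 2 reads in all of the *Sca-1*-YFP- population, a ratio of 985 (95% counting interval 272 to 8140). The protease gene *Ctss* and the oxidase gene *Cybb*, both of phagocytes, rose by 6.55 and 5.85, and the integrin gene *Itgam* (CD11b) by 5.40. *Gpnmb* was the macrophage marker not called (0.47, limma, adjusted p = 0.28).

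*Cd74*, which chaperones MHC class II chains, was at 361, 299, 233 and 206 after AMI and 1.42, 3.45, 1.98 and 2.35 in the *Sca-1*-YFP- population (log2 fold change 6.39 ± 0.21, adjusted p = 5.4e-09). *H2-Aa*, a class II alpha chain, was at 238, 167, 146 and 109 against 1.00, 2.34, 1.04 and 1.52 (log2 fold change 6.04 ± 0.23, adjusted p = 1.6e-08). For both, AMI library 1 was the highest and library 4 the lowest, and no library of the *Sca-1*-YFP- population reached 4 in value. *Plek* and *Cd53*, genes of most leukocytes, rose by 4.20 and 4.99 (adjusted p = 2.0e-08 and 2.3e-08). *Itgb2*, another such gene, had 2 reads in all of the *Sca-1*-YFP- population and had to differ, with a ratio of 264 (95% counting interval 72.8 to 2180).

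Genes of B cells and immunoglobulins varied several-fold among the AMI libraries. *Ighm*, the heavy chain of IgM, was at 2995, 3370, 538 and 1826 after AMI, at 7.85, 0.334, 4.76 and 31.3 in the *Sca-1*-YFP- population and at 199.6, 16.9, 61.0 and 158 in homeostatic *Bmi1*-CPC. AMI library 3 was the lowest of its group, though above every library of the other populations, and the log2 fold change was 8.02 ± 0.82 (adjusted p = 1.7e-05). *Igkc*, the kappa light chain, showed the same order, 1843, 2006, 355 and 1204 after AMI against 5.42, 0.334, 2.21 and 11.7 (log2 fold change 8.02 ± 0.66, adjusted p = 3.6e-06), and *Igj*, the joining chain of secreted IgM and IgA, was at 228, 258, 47.7 and 144 after AMI against 0.158, 0.111, 0.348 and 1.24. The variable segments *Igkv15-103* and *Igkv14-126* had 0 reads in the *Sca-1*-YFP- population and were at least 756-fold and 611-fold higher, and members of this multigene family share sequence. *Ms4a1* (CD20) was at 37.8, 25.8, 11.7 and 9.72 after AMI with 1 read in all of the *Sca-1*-YFP- population, a ratio of 454 (95% counting interval 81.2 to 18000). *Cd79a*, part of the B cell receptor, was at 31.9, 24.7, 12.1 and 8.58, and *Bank1*, a B cell adaptor gene, at 57.8, 42.8, 20.5 and 14.3. In these 3 genes AMI libraries 1 and 2 were above libraries 3 and 4. Of 8 T and NK cell markers 0 were among the genes tested, and of 8 neutrophil markers only *Cxcr2* was, at 5.20, 1.75, 2.52 and 4.33 after AMI against 2.69, 0.334, 3.60 and 3.73 (log2 fold change 0.40, adjusted p = 0.44).

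Homeostatic *Bmi1*-CPC lay between the other populations for these lists. Pan-leukocyte genes summed to 19.3 to 27.9 in the *Sca-1*-YFP- population, 135 to 176 in homeostatic *Bmi1*-CPC and 457 to 768 after AMI, and macrophage markers to 36.4 to 44.3, 176 to 321 and 867 to 1559. For *Ighm* the log2 fold change was 3.49 for homeostatic *Bmi1*-CPC over the *Sca-1*-YFP- population and 4.53 for AMI over homeostatic *Bmi1*-CPC. How far the removal of CD45+ cells from one sort bears on these genes was not tested.

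**Figure D4:**
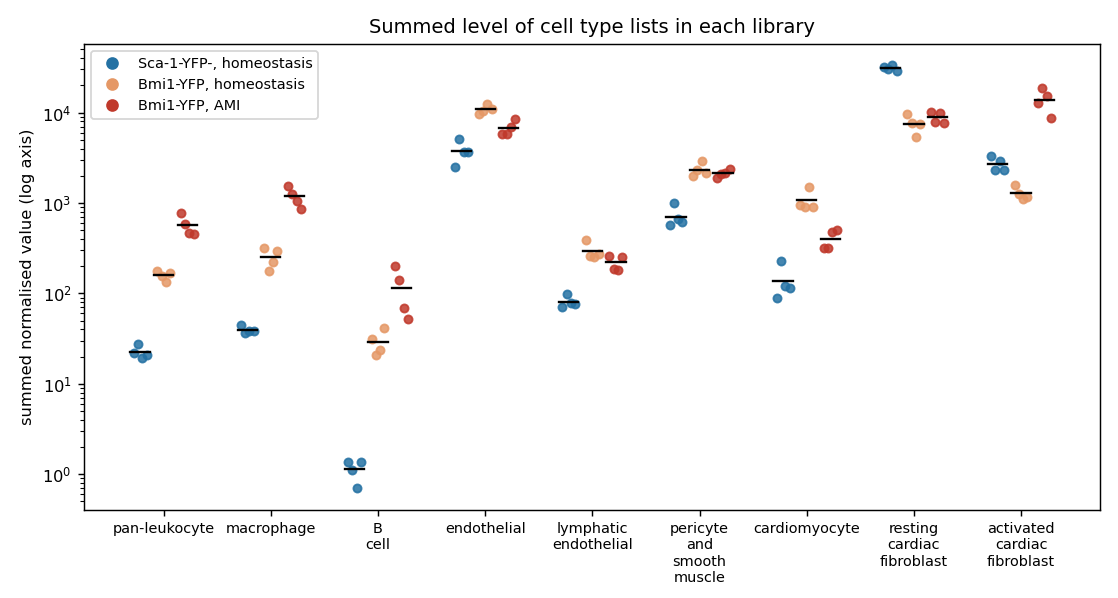
Summed normalised value (log axis) of the tested members of 9 cell type lists in each library of homeostatic *Sca-1*-YFP- cells, homeostatic *Bmi1*-CPC and AMI *Bmi1*-CPC, 1 point per library with a bar at the mean. Leukocyte lists step up from left to right within each trio, cardiomyocyte and endothelial lists peak in homeostatic *Bmi1*-CPC, and activated fibroblast genes are highest after AMI (8785 to 18610).

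Endothelial genes were higher in AMI *Bmi1*-CPC than in the *Sca-1*-YFP- population, 15 of 20 by the test (75%, beside 25.5% of all genes, median 1.05). *Erg*, a transcription factor that maintains endothelial identity, was at 121, 125, 131 and 142 after AMI, 41.5, 81.7, 54.7 and 52.3 in the *Sca-1*-YFP- population and 284, 253, 222 and 230.5 in homeostatic *Bmi1*-CPC. The populations did not overlap, with homeostatic *Bmi1*-CPC highest, and AMI *Bmi1*-CPC were above the *Sca-1*-YFP- population by 1.20 ± 0.17 (adjusted p = 1.3e-04) and below homeostatic *Bmi1*-CPC (log2 fold change −0.92, adjusted p = 3.3e-05). *Plvap*, the diaphragm protein of permeable vessels, differed from this, at 17.4, 14.2, 13.1 and 18.2 after AMI, 2.48, 1.00, 0.116 and 2.07 in the *Sca-1*-YFP- population and a mean of 2.58 ± 0.520 (SD, n = 4) in homeostatic *Bmi1*-CPC (log2 fold change 2.91 ± 0.31, adjusted p = 2.3e-05). *Vwf* (von Willebrand factor) rose by 1.22 and the factor gene *Ets1* by 1.41 (adjusted p = 8.0e-05 and 2.7e-05). Relative to homeostatic *Bmi1*-CPC, 13 endothelial genes were lower and 1 higher after AMI (median −0.57, background 22% lower), and 19 of 20 were higher in homeostatic *Bmi1*-CPC than in the *Sca-1*-YFP- population (median 1.60). Of 10 heart capillary genes, which serve fatty acid uptake, 5 rose and 1 fell (50% and 10%, beside 25.5% and 26.3% of all genes). Against homeostatic *Bmi1*-CPC 0 were higher and 8 lower after AMI (median −0.95). All 10 were higher in homeostatic *Bmi1*-CPC than in the *Sca-1*-YFP- population (median 1.61). *Cd36*, the fatty acid transporter, was at 2183, 2024, 2606 and 3449 after AMI against 475, 1684, 976 and 985 (log2 fold change 1.42 ± 0.32, adjusted p = 0.0031), and *Fabp4* and *Fabp5*, fatty acid binding proteins, rose by 1.45 and 1.56. *Sca-1*-YFP- library 2 had the highest *Erg*, *Cd36* and *Fabp4* of its group.

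Lymphatic endothelial genes stood further apart, 6 of 7 higher (85.7%, beside 25.5% of all genes, median 3.12). Of these, *Mmrn1* was above 1 in no library of the *Sca-1*-YFP- population and had to differ. Of the other 6 genes 5 were higher. *Lyve1*, the hyaluronan receptor of lymphatic vessels and of some macrophages, was at 26.9, 15.9, 16.8 and 25.3 after AMI against 1.84, 1.00, 2.44 and 0.966 (log2 fold change 3.12 ± 0.24, adjusted p = 2.0e-06). *Mmrn1* was at 54.3, 17.3, 16.2 and 34.98 after AMI, a ratio of 218 over 3 reads in all of the *Sca-1*-YFP- population (95% counting interval 74.5 to 1060), and the glycoprotein gene *Reln* and the lymphatic chemokine gene *Ccl21a* rose by 3.21 and 3.20. *Pdpn* was not called (−0.10). Against homeostatic *Bmi1*-CPC the list's median was −0.41, with 1 gene higher and 1 lower after AMI. In homeostatic *Bmi1*-CPC 6 were higher and 1 lower than in the *Sca-1*-YFP- population (median 3.54).

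Of 14 mural cell genes, 10 rose and 2 fell (71.4% and 14.3%, beside 25.5% and 26.3% of all genes, median 1.08). Against homeostatic *Bmi1*-CPC 3 were higher and 7 lower after AMI (median −0.60). In homeostatic *Bmi1*-CPC 13 were higher and 1 lower than in the *Sca-1*-YFP- population (median 1.64). *Rgs4*, a regulator of G protein signalling, was at 47.0, 66.0, 55.3 and 45.6 after AMI against 5.85, 13.04, 6.16 and 7.31 (log2 fold change 2.63 ± 0.22, adjusted p = 3.5e-06), and the adhesion molecule gene *Mcam* (CD146) at 134, 166, 172 and 198 after AMI against 25.2, 54.3, 45.4 and 41.2 (log2 fold change 2.02 ± 0.20, adjusted p = 1.3e-05). *Tagln* (transgelin) rose by 2.21 (adjusted p = 8.2e-06), whereas *Smtn* (smoothelin) fell (log2 fold change −0.78, adjusted p = 2.8e-05). The populations were fully separate for all 4. Without 1 library at a time 8 to 12 members were higher and 1 or 2 lower. The call of *Pdgfrb* (−0.37), named after its value was seen, was lost without AMI library 1, 3 or 4 and without *Sca-1*-YFP- library 1, 3 or 4.

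Cardiomyocyte transcripts were present in each population and all 14 tested were higher in AMI *Bmi1*-CPC than in the *Sca-1*-YFP- population (median 1.37, background 25.5%). *Tnnt2* (cardiac troponin T) was at 42.6, 49.6, 52.1 and 47.2 after AMI, 12.9, 23.7, 13.4 and 20.8 in the *Sca-1*-YFP- population and 171, 108, 156 and 119 in homeostatic *Bmi1*-CPC. Homeostatic *Bmi1*-CPC had the highest values and the *Sca-1*-YFP- population the lowest. AMI *Bmi1*-CPC exceeded the *Sca-1*-YFP- population by 1.43 ± 0.18 (adjusted p = 7.3e-05) and were lower than homeostatic *Bmi1*-CPC (log2 fold change −1.49, adjusted p = 1.5e-05). *Nppa*, the atrial natriuretic peptide, was at 13.04, 21.9, 28.7 and 24.2 after AMI against 4.05, 9.47, 5.92 and 3.73 (log2 fold change 1.78 ± 0.28, adjusted p = 3.1e-04), and *Actc1* (cardiac actin) and *Myl7* (atrial myosin light chain) rose by 2.01 and 1.97. Relative to homeostatic *Bmi1*-CPC, 13 of 14 were lower after AMI (median −1.29). With 1 library left out at a time 11 to 14 were called higher. Globin transcripts of red cells showed a like order, with *Hbb-b1* at 24.6, 32.7, 27.4 and 22.1 after AMI, 4.90, 13.5, 10.8 and 9.79 in the *Sca-1*-YFP- population and 38.0, 39.8, 44.0 and 70.5 in homeostatic *Bmi1*-CPC (log2 fold change over the *Sca-1*-YFP- population 1.43 ± 0.24, adjusted p = 5.4e-04).

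Most chemokines, the secreted attractants of leukocytes, rose, with 14 of 17 tested higher and 3 lower. Of the higher ones 4 were above 1 in no library of the *Sca-1*-YFP- population and had to differ. Of the other 13 genes 10 were higher and 3 lower (background 25.5% and 26.3%). *Cxcl2*, which attracts neutrophils, was at 119, 121, 113 and 109 after AMI and 2.37, 3.01, 1.28 and 2.35 in the *Sca-1*-YFP- population (log2 fold change 5.19 ± 0.16, adjusted p = 3.9e-09). *Cxcl5*, another ligand of the receptor CXCR2, was at 44.2, 31.7, 40.3 and 28.3 after AMI against 2.27, 2.79, 2.44 and 2.90 (log2 fold change 3.35 ± 0.16, adjusted p = 7.5e-08). The libraries of the populations did not overlap for either gene. *Ccl3*, a macrophage chemokine, had 0 reads in the *Sca-1*-YFP- population and 35.5, 32.5, 31.1 and 28.7 after AMI, at least 233-fold higher, and its relative *Ccl9* rose by 4.53 ± 0.18 (adjusted p = 2.0e-08). The 3 lower members, named after their values were seen, were *Cxcl14* (−2.59), the eosinophil attractant *Ccl11* (−2.03) and the lymphocyte attractant *Ccl19* (−1.39). *Cxcl14* was at 3.37 ± 1.28 after AMI and 24.8 ± 5.30 in the *Sca-1*-YFP- population (SD, n = 4).

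Growth factor genes were called in both directions, 11 higher and 10 lower of 31 tested (35.5% and 32.3%, beside 25.5% and 26.3% of all genes). Of the higher ones *Pdgfc* was above 1 in no library of the *Sca-1*-YFP- population and had to differ. Of the other 30 genes 10 were higher and 10 lower. *Ereg* (epiregulin), a ligand of the EGF receptor, was at 15.6, 22.9, 16.9 and 11.3 after AMI against 1.63, 2.56, 1.74 and 1.52 (log2 fold change 2.60 ± 0.21, adjusted p = 3.3e-06). *Pdgfc*, a ligand of PDGF receptor alpha, was at 7.91, 10.0, 6.28 and 4.19 after AMI against 0.158, 0.111, 0.348 and 0.690 (log2 fold change 2.58 ± 0.26, given as a description). *Bmp4*, a bone morphogenetic protein, was lower, at 18.9, 19.0, 14.1 and 15.1 against 79.7, 59.8, 58.6 and 60.6 (log2 fold change −1.89 ± 0.14, adjusted p = 1.3e-06). *Fgf7*, a stromal factor acting on epithelia, was also lower (−1.16, adjusted p = 2.2e-05), though AMI *Bmi1*-CPC were above homeostatic *Bmi1*-CPC by 0.69 (adjusted p = 0.022). The receptor of *Pdgfc*, *Pdgfra*, was lower after AMI than in the *Sca-1*-YFP- population, at 342, 234, 282 and 224 against 1058, 913, 1134 and 958 (log2 fold change −1.92 ± 0.14, adjusted p = 1.3e-06).

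Complement genes, 8 higher and 7 lower of 17 tested, were divided. Of the higher ones 5 were above 1 in no library of the *Sca-1*-YFP- population and had to differ, and of the other 12 genes 3 were higher and 7 lower (background 25.5% and 26.3%). The genes that had to differ were the chains of C1q and the receptors of C3a and C5a, which macrophages express. The other higher genes were *Cfb* (factor B), *Cfp* and *Cd59a* (log2 fold changes 1.22, 0.78 and 0.68). The call of *Cfp* was lost in 6 of 20 other settings. Among the lower genes were *C3*, *C7*, *C1ra*, *C1s* and *Serping1* (log2 fold changes −2.11, −2.88, −1.63, −1.16 and −1.89). *C2* and *C4b* were not called. These higher, lower and uncalled genes were named after their values were seen. *C1qb* was at 55.5, 46.3, 37.2 and 27.7 after AMI with 1 read in all of the *Sca-1*-YFP- population, a ratio of 906 (95% counting interval 162 to 35800), and *C1qc* and *C5ar1* had 0 reads there and were at least 175-fold and 117-fold higher. *C3ar1*, which also had to differ, was at 71.1, 55.0, 41.0 and 34.1 against 0.369, 0.334, 0.813 and 0.138 (log2 fold change 5.15 ± 0.23). Of 23 interferon-stimulated genes, 12 rose and 1 fell (52.2% and 4.35%, beside 25.5% and 26.3% of all genes, median 0.40). The lower gene, *Stat2* (log2 fold change −0.26, adjusted p = 0.041), named after its value was seen, lost its call in 10 of 21 other settings, among them those without AMI library 1 or 2 and without *Sca-1*-YFP- library 2, 3 or 4. *Eif2ak2* (the RNA sensor PKR) was at 85.2, 79.3, 93.3 and 83.2 after AMI against 47.5, 43.4, 50.3 and 45.7 (log2 fold change 0.85 ± 0.09, adjusted p = 1.9e-05), and *Ifi44* at 124, 105, 144 and 139 after AMI against 12.2, 48.0, 33.1 and 31.9 (log2 fold change 2.13 ± 0.31, adjusted p = 1.9e-04). The libraries did not overlap for either. *Rsad2* (viperin) was 1.44 higher, while the list's median against homeostatic *Bmi1*-CPC was −0.30, with 6 genes lower and 1 higher after AMI. In this list 9 to 16 genes were called higher under the other settings.

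Clock genes, the feedback loop that keeps daily time, were mostly lower in AMI *Bmi1*-CPC, 13 of 17 against 1 higher (median −1.24). These shares were 76.5% and 5.88%, beside 26.3% and 25.5% of all genes. *Per2*, a repressor of the loop, was at 7.76, 6.23, 5.63 and 10.7 after AMI and 149.5, 144, 91.2 and 101 in the *Sca-1*-YFP- population (log2 fold change −3.84 ± 0.20, adjusted p = 1.4e-07), and its mean in homeostatic *Bmi1*-CPC was 109 ± 50.9 (SD, n = 4). *Hlf*, a clock output factor, was at 11.8, 7.77, 9.13 and 18.5 against 390.2, 331, 143 and 124 (log2 fold change −4.17 ± 0.36, adjusted p = 5.1e-06). *Dbp*, a related output factor, was at 3.24, 2.03, 1.88 and 7.45 after AMI against 89.6, 84.1, 21.9 and 19.7 (log2 fold change −3.38 ± 0.51, adjusted p = 2.4e-04). The populations were separate for these 3 genes, but within the *Sca-1*-YFP- population libraries 1 and 2 were well above 3 and 4. *Per3* and *Cry2*, further repressors, fell (log2 fold changes −2.95 and −1.66, adjusted p = 1.4e-05 and 4.0e-06). *Dbp* overlaps the antisense gene *Sphk2*, and the libraries keep no strand.

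The libraries of the *Sca-1*-YFP- population were not alike in this loop. *Arntl* (BMAL1), the activator of the loop, was at 0.790, 1.23, 39.4 and 43.7 in the *Sca-1*-YFP- population, 37.1, 38.1, 40.2 and 27.2 after AMI and 2.81, 0.320, 27.7 and 27.8 in homeostatic *Bmi1*-CPC. Libraries 1 and 2 of both uninjured populations were far below their libraries 3 and 4, and the AMI libraries were all at the higher level. *Arntl* was not called (log2 fold change 1.98 ± 0.94, adjusted p = 0.099). It passed when library 3 or 4 of the *Sca-1*-YFP- population was left out (adjusted p = 0.034 and 0.026). *Nr1d1* (REV-ERB alpha), a repressor of *Arntl*, was reversed in order, at 448, 325, 86.3 and 92.8 in the *Sca-1*-YFP- population and 26.4, 23.3, 39.0 and 78.5 after AMI. The call of *Clock* (0.65, adjusted p = 0.026), the single higher member, was lost without AMI library 3 or without library 1 or 2 of the *Sca-1*-YFP- population, and with edgeR relative to library totals, limma with all 3 groups, and the fit without the libraries with the largest *mt-Rnr2* share (6 settings in all). *Arntl*, *Nr1d1* and *Clock* were chosen after their values were seen. Between the uninjured populations 4 clock genes were lower in *Bmi1*-CPC, and 12 with a replicate block. The hour at which hearts were collected is not given in the sources used here.

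Immediate early genes, which cells transcribe within minutes of a stimulus, were lower in 12 of 18 cases and higher in 2 (median −0.81). These shares were 66.7% and 11.1%, beside 26.3% and 25.5% of all genes. *Fosb* was at 248, 334, 295 and 306 after AMI and 788, 1315, 769.5 and 1333 in the *Sca-1*-YFP- population (log2 fold change −1.78 ± 0.19, adjusted p = 2.3e-05), and *Jun* at 383, 404, 409 and 427 after AMI against 722, 1007, 711 and 817 (log2 fold change −0.99 ± 0.12, adjusted p = 5.4e-05), both subunits of the AP-1 factor. *Junb*, a further subunit, fell (log2 fold change −1.41, adjusted p = 6.1e-05). *Ier3* was higher, at 99.8, 84.1, 95.7 and 94.8 against 42.3, 51.8, 45.9 and 50.4 (log2 fold change 0.96 ± 0.10, adjusted p = 1.4e-05).

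**Figure D5:**
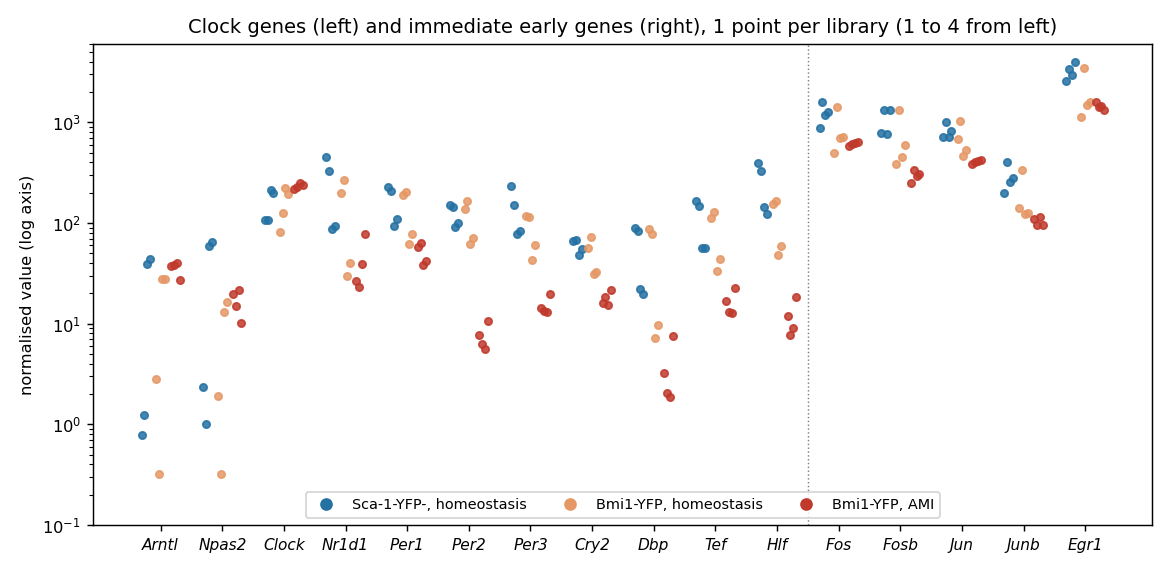
Normalised value (log axis) of 11 clock genes and 5 immediate early genes in each library of homeostatic *Sca-1*-YFP- cells, homeostatic *Bmi1*-CPC and AMI *Bmi1*-CPC, 1 point per library in the order 1 to 4. *Per2* and *Hlf* are low in all 4 AMI libraries, whereas *Arntl* and *Npas2* split the uninjured libraries 1 and 2 from 3 and 4.

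The Polycomb subunits were mixed. Of 25 tested, 7 were higher and 9 lower (median 0.03), against 25.5% and 26.3% of all genes. *Suz12*, a core subunit of Polycomb repressive complex 2, was at 85.4, 77.6, 80.8 and 77.7 after AMI against 35.4, 45.8, 39.8 and 33.2 (log2 fold change 1.05 ± 0.11, adjusted p = 1.7e-05). Its partners *Eed* and *Ezh2* were higher by 0.70 and 0.60, both named after their values were seen. *Ring1*, an E3 ligase of complex 1, was lower, at 4.44 ± 0.745 against 11.7 ± 0.850 (mean ± SD, n = 4; log2 fold change −1.23 ± 0.15, adjusted p = 5.5e-05), as were *Pcgf2*, a paralogue of *Bmi1* (−1.02, adjusted p = 1.2e-04), and *Phc1* (−0.80, adjusted p = 9.9e-05). The libraries of the populations did not overlap for any of these 4 subunits named by rule.

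Stem and progenitor markers were likewise mixed, 10 higher and 13 lower of 26 (38.5% and 50%, beside 25.5% and 26.3% of all genes). *Aldh1a1*, a retinaldehyde dehydrogenase, was at 86.9, 74.5, 66.7 and 46.0 after AMI and 386, 364, 312 and 292 in the *Sca-1*-YFP- population (log2 fold change −2.31 ± 0.17, adjusted p = 1.5e-06). *Gata4*, a cardiac transcription factor, was at 24.6, 22.5, 28.2 and 18.5 against 73.5, 59.6, 82.6 and 75.7 (log2 fold change −1.60 ± 0.14, adjusted p = 5.1e-06). *Cd34*, the surface sialomucin, fell (log2 fold change −0.98, adjusted p = 1.1e-05). A pair of pluripotency genes, chosen after their values were seen, had low values throughout. *Pou5f1* (OCT4) was at 0.527, 1.19, 0.0647 and 0.780 after AMI, 4.90, 5.24, 4.30 and 5.11 in the *Sca-1*-YFP- population and 6.36, 7.57, 10.1 and 12.6 in homeostatic *Bmi1*-CPC (log2 fold change over the *Sca-1*-YFP- population −1.89 ± 0.23, adjusted p = 6.2e-05). *Dppa5a*, tested only because the *Sca-1*-YFP- population was above 1, had 0 reads in all 4 AMI libraries and 17, 9, 6 and 8 reads in those of the *Sca-1*-YFP- population, at least 17.4-fold lower after AMI, and was at 4.29, 4.58, 4.02 and 5.17 in homeostatic *Bmi1*-CPC. *Kit*, the receptor that has been used to sort cardiac progenitors, was at 47.7 ± 7.19 and 20.3 ± 7.17 (SD, n = 4; 1.24, adjusted p = 3.6e-04).

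In the Notch pathway, signalling between neighbouring cells, 6 genes rose and 6 fell of 21 (28.6% in each direction, beside 25.5% and 26.3% of all genes). *Hes1*, a target of the pathway, was at 62.5, 47.2, 52.9 and 57.2 after AMI against 22.6, 33.5, 23.8 and 25.8 (log2 fold change 1.04 ± 0.14, adjusted p = 8.8e-05). *Heyl*, another target, was lower, at 62.2, 80.6, 56.5 and 46.0 against 241, 146, 261 and 266 (log2 fold change −1.87 ± 0.20, adjusted p = 2.6e-05). *Adam10*, a protease that cleaves the receptors, rose (log2 fold change 0.99, adjusted p = 5.7e-05). The ligands *Jag1* (−0.01) and *Dll4* (0.11) and the receptor *Notch1* (−0.03) did not pass the test, and these 3 were picked after their values were seen.

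Genes of metabolism and protein synthesis differed by less. Of 45 cytosolic ribosomal protein genes, 21 rose and 5 fell (46.7% and 11.1%, beside 25.5% and 26.3% of all genes, median 0.26). *Rpl3* was at 244, 278, 302 and 277 after AMI against 146, 119, 130.4 and 119 (log2 fold change 1.09 ± 0.10, adjusted p = 7.4e-06), with many near-identical copies, and *Rpl18* at 72.4, 67.1, 68.4 and 69.2 after AMI against 99.1, 101, 101 and 109 (log2 fold change −0.56 ± 0.08, adjusted p = 1.4e-04). Of 31 proteasome subunits 11 rose and 1 fell (35.5% and 3.23%). *Psma3* was at 53.7, 57.0, 54.2 and 53.6 after AMI against 26.5, 29.3, 24.5 and 25.5 (log2 fold change 1.02 ± 0.09, adjusted p = 6.4e-06). Of 27 nuclear genes of the respiratory chain 14 rose and 1 fell (51.9% and 3.7%). *Cox5a*, a subunit of complex IV, was at 20.7, 26.1, 25.1 and 22.8 after AMI against 9.64, 10.6, 8.94 and 10.6 (log2 fold change 1.17 ± 0.12, adjusted p = 1.8e-05). *Pgk1*, a glycolytic enzyme, rose by 0.93 and the glucose transporter gene *Slc2a1* by 0.89, among 7 of 19 glycolysis and hypoxia genes (36.8%) that rose. Genes of fatty acid oxidation gave 4 higher and 6 lower of 17 (23.5% and 35.3%, beside 25.5% and 26.3% of all genes), and *Acaa2*, the last enzyme of the cycle, fell (log2 fold change −0.79, adjusted p = 3.1e-04). Endoplasmic reticulum genes gave 7 higher and 2 lower of 23 (30.4% and 8.7%; 1 or 2 lower with 1 library left out), with the translocon subunit *Sec61b* higher and *Herpud1*, of protein degradation at that membrane, lower (log2 fold changes 1.19 and −0.84, adjusted p = 5.6e-05 and 3.2e-04). These counts depended on the scale: relative to library totals, the higher calls were 12 for ribosomal proteins, 5 for the proteasome, 8 for the respiratory chain, 1 for fatty acid oxidation and 3 for the endoplasmic reticulum. For the proteasome 7 were called higher without AMI library 1 or without *Sca-1*-YFP- library 3. Transcripts of the mitochondrial genome gave 8 higher of 15 (53.3%, median 0.85), with *mt-Nd3* at 97.0, 32.0, 44.0 and 73.1 after AMI against 11.96, 19.3, 16.6 and 23.6. Of these transcripts 5 were called higher without AMI library 1, *Sca-1*-YFP- library 1 or *Sca-1*-YFP- library 3. Against homeostatic *Bmi1*-CPC 0 were higher and 5 lower after AMI (median −0.49). In homeostatic *Bmi1*-CPC 13 were higher than in the *Sca-1*-YFP- population (median 1.42).

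Among the 15 genes with the largest differences in favour of the *Sca-1*-YFP- population were, beside the clock genes above, genes of varied roles. *Inmt*, a methyltransferase, was at 3.69, 1.05, 0.842 and 1.35 after AMI and 85.4, 65.4, 60.0 and 56.4 in the *Sca-1*-YFP- population (log2 fold change −4.72 ± 0.27, adjusted p = 2.0e-07). *Ppl* (periplakin), a cytoskeletal linker, was at 9.27, 3.43, 6.80 and 9.15 after AMI against 208, 152, 126 and 129.5 (log2 fold change −4.29 ± 0.25, adjusted p = 3.1e-07). *Tnxb* (tenascin X), a matrix glycoprotein, was at 145, 84.5, 144 and 113 after AMI against 1867, 1167, 1471 and 1472 (log2 fold change −3.62 ± 0.18, adjusted p = 1.1e-07). For all 3 the populations were wide apart. *Hmcn2* (hemicentin 2, a matrix protein), *Podn* (podocan, a leucine-rich proteoglycan) and *Crispld2* (a secreted cysteine-rich protein) fell (log2 fold changes −3.84, −3.39 and −3.26, adjusted p = 1.1e-07, 2.0e-08 and 1.8e-08). *Gsta3*, a glutathione transferase, *Nmb*, the peptide neuromedin B, and *Penk*, the precursor of enkephalins, fell too (log2 fold changes −3.73, −3.48 and −3.36). *Zbtb16* (PLZF), a transcription factor induced by glucocorticoids, was at 7.61, 17.3, 5.24 and 6.598 after AMI against 219, 141, 43.3 and 114 and at a mean of 102 ± 63.9 (SD, n = 4) in homeostatic *Bmi1*-CPC. Every AMI library was below every library of the *Sca-1*-YFP- population, and it fell against the *Sca-1*-YFP- population (log2 fold change −3.60 ± 0.44, adjusted p = 5.8e-05). In contrast, *Inmt*, *Tnxb* and *Podn* were already lower in homeostatic *Bmi1*-CPC than in the *Sca-1*-YFP- population (log2 fold changes −2.24, −2.17 and −1.87) and lower again after AMI (−2.48, −1.45 and −1.53). *Gm15725* fell (−3.95), but its sequence matches *Lrrc58* over its full length and *Actb* over 70.4% of it (96% identity), so its reads are not its own with certainty. *Gm20417*, an unnamed gene model, was above 1 in no library of the *Sca-1*-YFP- population (0.111 to 0.579). It was tested only because the AMI libraries were above 1, and it had to differ (log2 fold change 7.37).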

How the data were processed

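Sorted cells of pooled hearts gave RNA that was amplified and sequenced in libraries without strand. The submitters' notes name cutadapt, RSEM, edgeR and the mouse build NCBIM37, without versions or roles. The deposited values are a normalised signal per gene: by the authors' processing each is a read number with 0.5 added, multiplied by a constant of its library (100% of values within 1e-06 of a read, largest deviation 5.59e-09). The 4 homeostatic *Bmi1*-CPC columns, present in the table of each arm, were identical (largest difference 0), so the tables share a normalisation and were joined by gene ID. Of the 12528 genes, 28 had no symbol and 90 shared one. The tables' own columns of fold change and adjusted p were not used, and 0 columns of sample values were left out.

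Values were tested as log2(value + 1) in limma 3.58.1 (R 4.3.3) with a variance trend, two-sided, with Benjamini-Hochberg adjustment over the genes whose value passed 1 in 4 or more of the 8 libraries, called at an adjusted p under 0.05. In a single simulated set with planted changes in this layout of 12521 genes, limma recovered 65 of 100 genes changed by 1 log2 unit and 95 of 100 changed by 2, and 10 of its 170 calls were unchanged genes. Far fewer genes were changed in that set than were called in the real comparison, so these figures need not hold for it. The *mt-Rnr2* share was compared by exact permutation. Chi-square over degrees of freedom between libraries of a population was 7.09 to 60.7, above sampling noise, so each was counted as its own replicate pool. Intervals and floors cover counting error only. Alternatives were other pseudocounts, filters and scalings, edgeR 4.0.16 and DESeq2 1.42.0 on the recovered reads, fits without a trend, with all 3 groups or with a replicate block, and fits without single libraries. Same-numbered libraries of the uninjured populations, which the study describes as matched, correlated in their deviations at 0.26, 0.24, 0.16 and 0.30, so that side comparison was also fitted with a replicate block, after the data were seen.

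The members and the 37 gene lists (643 tested genes) were chosen with earlier results of these data known, and lists are described by counts and medians only. Named by rule were the sort genes, the 15 called genes with the largest change in each direction (no overlap, and a mean of 10 or more in the group where it is higher), and the 4 members of each list with the smallest adjusted p. Near-identical copies were sought with blastn among annotated transcripts (at least 95% identity over at least 75 bases and 25% of the transcript), and 18 of 163 named genes had one. Promoters are from RefSeq (GRCm38.p6), matched by symbol. Some results on single genes of the lists are not reported here.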

Additional observations from a re-analysis of the deposited data

Results flagged for a closer look

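Within a population of 4, single libraries stood apart in 6 of 140 groups examined, where chance alone gives about 1 in 20. In the *Sca-1*-YFP- population, *Bmi1* was at 35.3 in library 2 and at 25.0 to 26.6 in the others, *Gm20417* at 0.579 in library 1 against 0.111 to 0.138, and *Crispld2* at 789.8 in library 1 against 668 to 685. Library 1 of the *Sca-1*-YFP- population also had the lowest summed level of the inhibitors of cyclin-dependent kinases, 146 against 218 to 223. Its library 4 had the lowest sum of matrix proteases and inhibitors, 6174 against 7051 to 7218. In AMI *Bmi1*-CPC, library 2 had the highest sum of mitosis genes, 1436 against 825 to 894. For *Bmi1*, *Crispld2* and the mitosis genes the libraries of the populations stayed apart with the outlying library included. For *Gm20417*, tested only because the AMI libraries were above 1, they had to.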

How the results depend on the processing

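Leaving out 1 library at a time gave 2742 to 3344 higher and 2946 to 3436 lower genes, and a difference in *mt-Rnr2* share of 5.33 to 10.4 points. Relative to library totals the number of higher genes was 2025. All other settings gave counts within 1.5 times those reported, 0 genes were called in the opposite direction under any of them, and 72.5% to 99.9% of the calls were shared, the lowest where only genes with a mean of at least 10 were tested (8221). edgeR with TMM gave 3325 higher and 3218 lower genes, and DESeq2 3273 and 3113. With a replicate block these were 2974 and 3101. Same-numbered libraries of the populations correlated at 0.05, −0.17, 0.05 and 0.01 in their deviations, so the numbers were not taken to pair them. The block added for the uninjured populations moved the calls from 4286 to 4667, and the lower clock genes from 4 to 12. Of 167 genes named by rule, 157 were called, and 4 lost the call in 1 setting each: *Canx* (adjusted p = 0.158), *Hadhb* (0.217) and *Sdhd* (0.0738) with edgeR relative to library totals, and *Hba-a1* without AMI library 2 (0.0538). Over all their settings the adjusted p of *Canx* ran from 1.0e-06 to 0.158, of *Hadhb* from 1.5e-04 to 0.217, of *Sdhd* from 4.2e-05 to 0.0738 and of *Hba-a1* from 0.0021 to 0.0538. Most of the 167 genes were chosen for a small adjusted p or a large change, so the few lost calls follow in part from that choice. Among genes named after their values were seen, calls were lost for *Stat2* in 10 of 21 settings, *Pdgfrb* in 8 of 21, *Cfp* in 6 of 20 and *Clock* in 6 of 21. For *Postn* and *Acta2* they were lost in 0 of 21. Genes named by rule that were not called changed sign in some settings. Without the libraries with the largest *mt-Rnr2* share, a setting added after the data were seen, *Ly6a* was at 0.029, *Cxcr2* at −0.21 and *Eif2s3y* at −0.11. Without *Sca-1*-YFP- library 2 *Cxcr2* was at −0.027, and without *Sca-1*-YFP- library 4 *Xist* was at −0.12. Leaving out 1 library at a time gave −0.027 to 0.60 for *Cxcr2* and −0.12 to 2.89 for *Xist*. Of 755 list medians recomputed, 714 moved by less than the spread and 41 by more. The cause of these shifts was not tested. Depth limits genes with 0 to 3 reads in a population, for which bounds or counting intervals are given.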
